A study of Mus musculus with 4 samples.

Results

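In the CD8+ lymphocytes profiled here, 374 of 15237 merged accessible regions carried a peak in both phenelzine libraries and in neither untreated library, which is 2.45% of all regions (exact 95% interval 2.21 to 2.71). Peaks of the 4 deposited peak lists on chromosomes 1 to 19 and X were merged wherever they overlapped by at least 1 bp, and a region counted as held by a list when that list had a peak in it. The regions were thus chosen by the presence and absence of peaks, that is by measured values of these 4 libraries, and their strengths are given as a description only. Each of the 374 regions had exactly 1 peak in each phenelzine list. For comparison, 285 regions were held by both untreated lists only, 896 by both stimulated lists only, and 4085 by all 4 lists.

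The series measured DNA accessibility in CD8+ lymphocytes of BALB/c mice, which its title calls tumour-infiltrating. There were 4 libraries, 1 for each of stimulated phenelzine-treated, unstimulated phenelzine-treated, stimulated untreated and unstimulated untreated cells. Stimulation lasted 2 h and used PMA and ionomycin, a phorbol ester and a calcium ionophore that together bypass the T cell receptor. The labels state their concentrations as 1 mg/mL for PMA and 10 mM for ionomycin. The dose, duration and route of phenelzine, the tumour, any sort of the cells, the number of animals and any pooling are not stated in the labels. The design text states that there were no replicates, so no test between conditions was made, no p-value was computed, and every difference between conditions is also a difference between single libraries.

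Phenelzine is a hydrazine drug that irreversibly inhibits the monoamine oxidases. It also inhibits the related flavin-dependent enzyme LSD1, the product of Kdm1a, which removes methyl marks from histone lysines as part of complexes with the CoREST proteins and histone deacetylases. In ATAC-seq, the Tn5 transposase inserts sequencing adapters into DNA that is not shielded by nucleosomes, so peaks mark accessible promoters and enhancers. In these bulk libraries, a weaker peak from fewer cells of one kind and from less open DNA per cell cannot be told apart.

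The lists held 9322 peaks in stimulated and 7929 in unstimulated phenelzine-treated cells, against 10405 in stimulated and 6519 in unstimulated untreated cells. Of 10 CD8 T cell marker genes in the gene table, 4 had a region in the gene body or within 20 kb in each of the phenelzine lists, against 6 in stimulated and 4 in unstimulated untreated cells. Cd247, Cd3d and Cd3g, which encode chains of the T cell receptor complex, were among them in all 4 lists, whereas Cd8a and Cd8b1, which encode the CD8 chains, had no region in any list. Of 12 myeloid marker genes, 6 in each phenelzine list had a region, against 7 in stimulated and 3 in unstimulated untreated cells. Their part in the results was not tested.

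The sequences below are the whole accessible stretches at 8 start sites. The Kdm1a stretch is shown because its product is a target of the drug, the Prdx1 stretch because it holds a TATA box, and the other 6 because they were among the strongest regions of the set. They come from the RefSeq promoter table for GRCm38.p6, the assembly called mm10, and each reads from 5′ to 3′ on the strand of its gene. Capitals mark matches, on either strand, to any of 10 short motifs, with no overlap between matches of different motifs in these 8 stretches.
Kdm1a: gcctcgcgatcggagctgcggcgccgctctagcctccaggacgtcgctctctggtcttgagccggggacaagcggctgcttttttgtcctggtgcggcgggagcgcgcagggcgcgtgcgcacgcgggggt
Snrpf: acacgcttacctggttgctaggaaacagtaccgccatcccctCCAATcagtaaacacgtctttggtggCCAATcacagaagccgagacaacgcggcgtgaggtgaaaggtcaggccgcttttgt
Ccdc181: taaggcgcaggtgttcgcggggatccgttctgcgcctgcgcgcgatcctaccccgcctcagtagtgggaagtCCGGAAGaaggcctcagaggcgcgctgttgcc
Stx17: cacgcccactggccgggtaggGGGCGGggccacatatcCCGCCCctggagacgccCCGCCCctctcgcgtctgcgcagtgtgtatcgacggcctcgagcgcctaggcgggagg
Fuca1: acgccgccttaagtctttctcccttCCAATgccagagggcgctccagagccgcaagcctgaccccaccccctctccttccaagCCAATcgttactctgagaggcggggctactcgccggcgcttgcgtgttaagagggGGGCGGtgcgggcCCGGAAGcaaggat
Nkrf: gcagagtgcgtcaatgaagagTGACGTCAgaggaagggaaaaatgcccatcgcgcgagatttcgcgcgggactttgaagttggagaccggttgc
Aars2: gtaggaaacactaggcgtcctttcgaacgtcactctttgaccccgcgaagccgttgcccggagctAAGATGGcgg
Prdx1: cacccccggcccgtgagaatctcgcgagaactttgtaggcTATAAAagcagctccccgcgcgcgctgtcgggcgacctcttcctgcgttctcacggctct
Kdm1a lies on the minus strand and its stretch is chr4:136602702-136602832. Its 131 bases held 71.8% G and C and 19 CpG sites, and none of the 10 motifs. The Snrpf stretch, chr10:93589657-93589780 on the minus strand, held 2 CCAAT boxes, the letters that the factor NF-Y binds. The Ccdc181 stretch, chr1:164275526-164275629 on the plus strand, held the ETS motif CCGGAAG, and the Stx17 stretch, chr4:48124847-48124959 on the plus strand, held 3 copies of the SP/KLF motif GGGCGG. The Fuca1 stretch, chr4:135920600-135920764 on the plus strand, held 2 CCAAT boxes, 1 SP/KLF motif and 1 ETS motif. In the Nkrf stretch, chrX:36903483-36903576 on the minus strand, the CRE motif TGACGTC was read on both strands of the same letters. The Aars2 stretch, chr17:45506786-45506860 on the plus strand, held the YY1 motif AAGATGG, and the Prdx1 stretch, chr4:116685530-116685629 on the plus strand, held TATAAA. A match describes the letters and shows no binding.

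The regions of this set were mostly weak peaks in both phenelzine lists. The authors' −log10 q-value, which measures how far a peak stands above background within its own list, had a median of 2.20 in stimulated cells (range 1.01 to 8.36) and 2.04 in unstimulated cells (range 1.03 to 6.68). Ranked within its list, the median region stood at the top 63.8% in stimulated and 68.3% in unstimulated phenelzine-treated cells. Only 113 regions (30.2%) lay in the stronger 50% of the stimulated list, and 105 (28.1%) in that of the unstimulated list. The top 10% held 3 in the stimulated and 4 in the unstimulated list. The authors' fold enrichment over background had a median of 4.49 in stimulated and 4.42 in unstimulated phenelzine-treated cells. Regions held by other pairs of lists stood at similar places, with medians over their lists between the top 63.6% and the top 73.0%, against 65.9% for this set.

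These strengths correspond to few fragments. The most frequent pair of fold and −log10 p in each list corresponded to a pileup of 5 fragments, for which counting error alone spans 1.62 to 11.7 (exact Poisson 95% interval). On the same formulas, the median region had a pileup of 5.69 in stimulated and 5.51 in unstimulated phenelzine-treated cells, and the pileup was under 7 for 329 regions (88.0%) in stimulated and 336 (89.8%) in unstimulated cells. A pileup of 4 would give a −log10 p of 3.81 in the stimulated and 3.88 in the unstimulated phenelzine library, against 3.79 in the stimulated and 4.25 in the unstimulated untreated library. In each list this lies under the lowest value deposited, so at that background a difference of 1 fragment could decide whether a peak was listed. The lowest pileups of the set on these formulas were 2.85 in stimulated and 3.76 in unstimulated phenelzine-treated cells, so a single background does not hold for every peak. Absence from an untreated list thus means that no peak passed the authors' threshold there, and presence and absence alone give no difference in accessibility.

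**Figure D1:**
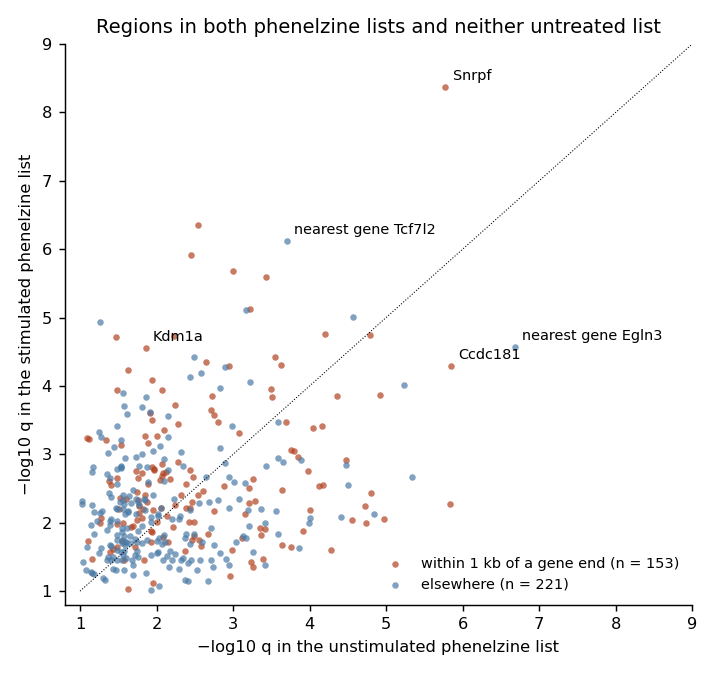
Each point is 1 of the 374 regions, plotted by the authors' −log10 q-value in the unstimulated phenelzine list (x axis) and in the stimulated phenelzine list (y axis), and coloured by distance to the nearest gene end. Most points crowd near 2 on both axes, and the Snrpf promoter stands apart at 8.36 in stimulated and 5.77 in unstimulated cells.

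Among regions that neither untreated list held, sharing between the phenelzine lists was limited. The phenelzine lists also shared regions that untreated lists held, such as the 4085 of all 4 lists, which the rule leaves out. A total of 3661 regions had a peak in at least 1 phenelzine list and in neither untreated list, and the 374 shared ones were 10.2% of them (9.25 to 11.2). They made up 15.6% of the 2393 such regions of the stimulated list and 22.8% of the 1642 of the unstimulated list. Regions of both untreated lists only made up 9.58% of the 2974 that stimulated untreated cells had and neither phenelzine list had, and 29.9% of the 954 that unstimulated untreated cells had. The phenelzine peaks of a region overlap by the way regions were built. They shared a median of 81 bp (5 to 348), 345 pairs (92.2%) shared at least 50% of the shorter peak, and the centres lay within 50 bp of each other in 278 pairs (74.3%).

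Peak strength and width were split between stimulated and unstimulated cells. The rank by −log10 q was higher in the stimulated than in the unstimulated phenelzine list for 210 regions (56.1%, 51.0 to 61.2). The peak was wider in the stimulated list for 191 regions (51.1%, 45.9 to 56.2) and narrower for 181, with median widths of 113.5 bp in stimulated and 111.5 bp in unstimulated cells. The intervals cover counting error only, and regions of the same libraries are not replicates.

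Of the 374 regions, 153 (40.9%, 35.9 to 46.1) lay within 1 kb of either end of a protein-coding gene. The share among all 15237 regions was 44.5%, and among regions of all 4 lists it was 77.1%. Regions of both untreated lists only had 41.8% (36.0 to 47.7), and the 4 other pairs of lists had between 34.1% and 52.8%. Regions found in 1 list only had between 20.4% and 24.1%. The share of the set lay within the range of the other pairs of lists. When the lists were cut to equal size, 55.5% of the regions then selected were at a gene end, and the value was 78.6% when all peaks needed a −log10 q of at least 3.

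**Figure D2:**
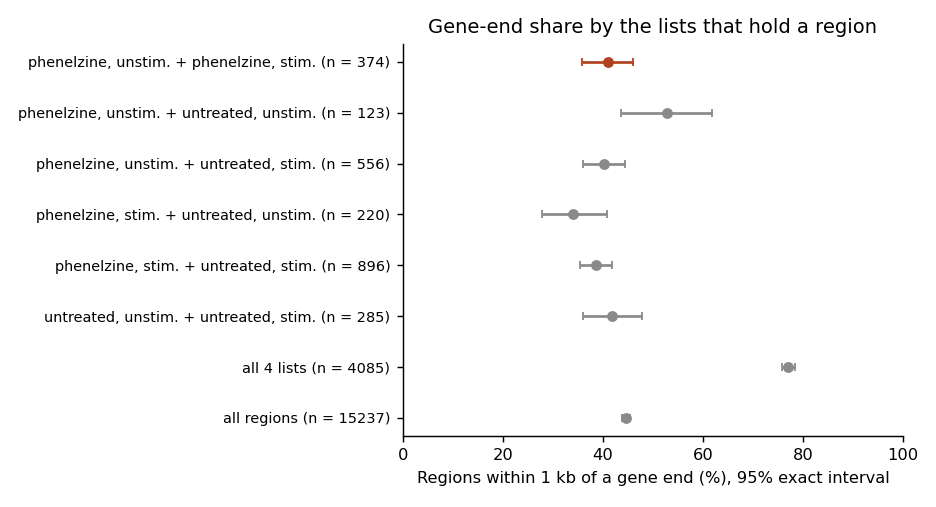
The x axis gives the share (%) of regions within 1 kb of a gene end for each pair of lists, for all 4 lists and for all regions, as points with exact 95% intervals. The regions of both phenelzine lists only, at 40.9%, overlap the interval of the regions of both untreated lists only, at 41.8%, and lie far below the 77.1% of regions in all 4 lists.

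Start sites were taken from the promoter table, which covers 367 of the regions, as it has no window for chromosome 18. A coding start lay within 1 kb of 138 regions (37.6%, 32.6 to 42.8). At these, the region covered the start itself in 102 cases (73.9%), against 70 of 98 (71.4%) for regions of both untreated lists only and 2427 of 2877 (84.4%) for regions of all 4 lists. The midpoint lay within 100 bp of the start in 101 of the 138 (73.2%, 65.0 to 80.4), in 73.5% of the regions of both untreated lists only, and in 59.9% of the regions of all 4 lists. The median midpoint was at −24.25 bp, against −65 bp for regions of all 4 lists, where a minus sign means upstream. At 20 of the 138 regions (14.5%), the starts of a divergent pair of coding genes both lay within 1 kb. The region need not cover either start, and this share was not computed for other sets of regions.

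**Figure D3:**
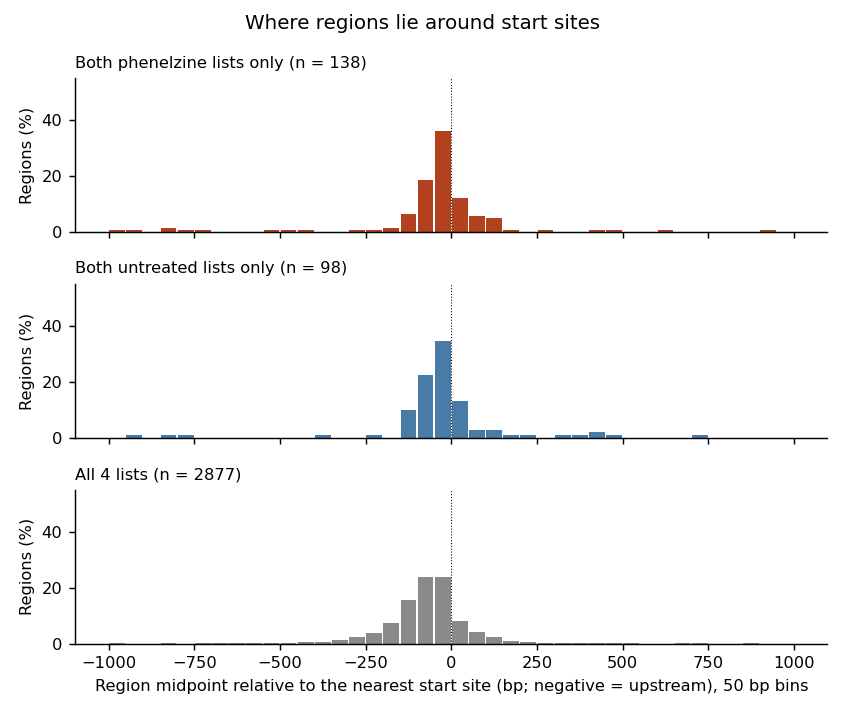
The x axis gives the distance (bp) of the midpoint from the nearest coding start in 50 bp bins, with upstream to the left, and the y axis the share of regions (%) within 1 kb of a start. The regions of both phenelzine lists only and those of both untreated lists only gather within 100 bp of the start (73.2% and 73.5%), and regions of all 4 lists spread further upstream.

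Among regions at a gene end, the highest values belonged to genes of varied roles. Ranked by the lower of the 2 values of −log10 q, the region at Snrpf, which encodes a core Sm protein of the spliceosome, came first. It reached 8.36 in stimulated and 5.77 in unstimulated phenelzine-treated cells, with fold enrichments of 7.88 in stimulated and 6.69 in unstimulated cells, and the nearest untreated peak was 100963 bp away. The region at chr3:129878529-129878599, 7 bp from an end of the phospholipase gene Pla2g12a, had 4.74 in stimulated and 4.79 in unstimulated cells. The Ccdc181 start, at a gene for a coiled-coil protein, had 4.29 in stimulated and 5.85 in unstimulated cells. Snrpf had the higher value of this pair in stimulated cells, and in unstimulated cells their values differed by less than counting error. The region at Stx17, whose SNARE protein fuses autophagosomes with lysosomes, had 4.76 in stimulated and 4.20 in unstimulated cells. The region at chr8:70131282-70131391 covered the start of Nr2c2ap and had 3.86 in stimulated and 4.92 in unstimulated cells. It also lay at an end of Rfxank, a subunit of the RFX complex that drives MHC class II genes. No start of Rfxank in the promoter table lay within 1 kb of it, and Rfxank had gene-end peaks in both untreated lists. The start of Fuca1, a lysosomal fucosidase gene, had 3.86 in stimulated and 4.36 in unstimulated cells.

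The Nkrf region, at the gene of a repressor of NF-kB targets, had 4.30 in stimulated and 3.62 in unstimulated cells. The region at Gna13, chr11:109362566-109362727, whose product is a G protein alpha subunit, had 3.84 in stimulated and 3.51 in unstimulated cells. That at Dnal1, a dynein light chain gene, chr12:84114275-84114359, had 3.96 in stimulated and 3.49 in unstimulated cells. These 3 had similar values in both lists, each slightly higher in the stimulated one, and no difference between the lists was tested. The region at Srbd1, chr17:86145117-86145227, had 3.48 in stimulated and 3.70 in unstimulated cells. The region at chr10:75773459-75773573 lay near the ends of Ddt, which encodes D-dopachrome tautomerase, and Gstt3, and had 5.60 in stimulated and 3.42 in unstimulated cells. Gstt3 also had a gene-end peak in the stimulated untreated list. The region 875 bp from an end of Duxf3, a double homeobox gene of a repeated array, chr10:58231872-58232214, had 4.43 in stimulated and 3.55 in unstimulated cells. Its placement is uncertain, because near-identical copies could share reads.

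Away from gene ends lay 221 regions, of which 101 were inside a gene body and 120 between genes. Their median distance to a gene end was 20992 bp, and 42 lay more than 100 kb away. They were weaker, with a median −log10 q of 2.06 in stimulated and 1.86 in unstimulated cells, whereas regions at gene ends had 2.44 in stimulated and 2.33 in unstimulated cells. The strongest by the lower value was the Aars2 stretch printed above, at a start of the mitochondrial alanyl-tRNA synthetase gene that is 3271 bp from the gene's ends in the gene table. It had 5.01 in stimulated and 4.57 in unstimulated cells. The region chr12:54405261-54405472, 201387 bp from Egln3, a gene for a prolyl hydroxylase that targets HIF proteins, had 4.56 in stimulated and 6.68 in unstimulated cells. The value in unstimulated cells was the highest of the set in that list. The region chr1:191224347-191224504 lay 41014 bp from Atf3, a stress-induced AP-1 family gene, and at the start of the transcript D730003I15Rik. It had 4.01 in stimulated and 5.24 in unstimulated cells.

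Of the next ones, chr19:55956902-55956999, 23243 bp from an end of the Wnt effector gene Tcf7l2, had 6.12 in stimulated and 3.71 in unstimulated cells. The region chr6:124919802-124919929, 1856 bp from the parathymosin gene Ptms, had 5.11 in stimulated and 3.17 in unstimulated cells. For both regions the value was higher in the stimulated list. Such values belong to a peak's own list, and the difference between the lists was not tested. The region chr2:50296643-50296759 lay inside Mmadhc, a gene of vitamin B12 metabolism, 2262 bp from its nearest end. It also lay just upstream of the start of the transcript Gm13483, and had 4.06 in stimulated and 3.22 in unstimulated cells. The region chr11:95712586-95712782, 31813 bp from the prohibitin gene Phb, had 3.47 in stimulated and 3.59 in unstimulated cells, and an untreated peak lay 346 bp from it. The region chr10:72778380-72778764, 103416 bp from the kinetochore gene Zwint, had 3.42 in stimulated and 2.98 in unstimulated cells.

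Kdm1a was among the genes with a region of this set. Its promoter region had a −log10 q of 4.55 and a fold enrichment of 5.97 in stimulated phenelzine-treated cells, and 1.86 and 4.34 in unstimulated phenelzine-treated cells. The gene body and the 20 kb on either side held no other region in any list, and the nearest untreated peak was 215872 bp away. The peak in unstimulated cells was weak, at the top 75.3% of its list. The same list of 16 genes of LSD1 complexes and amine oxidases held Rcor3, a CoREST gene. Its region, chr1:192092442-192092724, lay 5822 bp from Rcor3 and at the start of Traf5, a signalling adaptor of TNF receptors, with 1.46 in stimulated and 3.39 in unstimulated cells. Neither Rcor3 nor Kdm1a had any region in the untreated lists. Maoa, which encodes monoamine oxidase A, had a region of the opposite kind, held by both untreated lists only.

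Of 304 genes in lists of pathways and cell markers, 16 had a region of this set in the body or within 20 kb (5.26%, 3.04 to 8.41), against 562 of all 21631 protein-coding genes, which is 2.6%. Among genes with any region in that window, the shares were 16 of 227 (7.05%, 4.08 to 11.2) and 4.47%. Regions of both untreated lists only touched 11 of the 304 genes (3.62%) and 430 of all genes, which is 1.99%. The interval of that untreated share, 1.82 to 6.38, holds the 1.99% of all genes. The interval of the 7.05% holds the 4.47%, so among genes with any region the share is near the background. The interval of the 5.26% lies above the 2.6% of all genes. With a −log10 q of at least 2 for all peaks the share was 2.96%, against 1.82% of all genes.

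By pathway, the counts were too small to set against the 2.6% of all genes. None of the 17 genes of double-stranded RNA sensing and interferon response, the 20 immediate early and AP-1 genes, the 12 cytotoxic genes, the 12 naive and memory genes and the 14 T cell receptor genes had a region of this set. The AP-1 subunit genes Fos and Fosl2, Bach2, a quiescence factor gene, and Gata3 each had a region of both untreated lists only. There were 2 genes with a region of this set among 12 inhibitory receptor and exhaustion genes, 2 among 10 effector transcription factors, and 2 among 25 ribosomal protein genes. Further counts were 1 of 40 for histone-modifying enzymes (Ep300), 1 of 13 for the NF-kB and NFAT pathway (Traf1), 1 of 15 for cytokines and chemokines (Ccl5), 1 of 14 for lineage factors (Ets1) and 1 of 22 for splicing genes (Hnrnpa1). Of 50 markers of other cells, the neutrophil receptor gene Csf3r and the mesenchymal gene Prrx1 had one each. Both also had other regions, in at least 1 untreated list.

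Among T cell genes, the region chr2:163229204-163229340 lay inside Tox2, which encodes a factor of T cell exhaustion, and had 1.77 in stimulated and 2.04 in unstimulated cells. In its whole window Tox2 had 2 regions in stimulated and 1 in unstimulated phenelzine-treated cells, against none in stimulated and 1 in unstimulated untreated cells. The untreated region had a −log10 q of 3.31 in its own list. The region at Ptms given above lay 7368 bp from the inhibitory receptor gene Lag3, which had 2 regions in each phenelzine list, against 2 in stimulated and 1 in unstimulated untreated cells. The region of Bhlhe40, a factor of activated T cells, at chr6:108659518-108659654, had 2.32 in stimulated and 3.28 in unstimulated cells. Only 149 bp separated it from an untreated peak, so an untreated peak was also listed close by at Bhlhe40. Bhlhe40 had 3 regions in each phenelzine list, against 2 in stimulated and 1 in unstimulated untreated cells. The region of Hif1a, the oxygen-regulated factor gene, at chr12:73882757-73882989, lay 18335 bp from the gene and had 1.38 in stimulated and 1.70 in unstimulated cells. In its whole window Hif1a had 3 regions in each phenelzine list, against 2 in stimulated and none in unstimulated untreated cells. The region inside Ets1, a lineage factor of lymphocytes, at chr9:32714598-32714782, had 2.59 in stimulated and 3.15 in unstimulated cells. Ets1 had 7 regions in stimulated and 4 in unstimulated phenelzine-treated cells, against 3 in each untreated list.

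The region of the chemokine gene Ccl5, chr11:83534739-83534936, had 1.66 in stimulated and 1.40 in unstimulated cells, and lay 308 bp from an untreated peak. That of Rpl8, a large-subunit ribosomal protein gene, at chr15:76903976-76904082, had 1.65 in stimulated and 1.48 in unstimulated cells. Several of the other regions counted for a listed gene lay at a different gene. The region of Ep300 was the start of L3mbtl2, that of Rps27 the start of Jtb and that of Csf3r the start of Oscp1. That of Traf1 was nearest to an end of Hc. The region of Hnrnpa1 lay 407 bp from an end of that gene and 368 bp from an end of Cbx5, the gene of a heterochromatin protein. An untreated peak lay 289 bp from it, and Hnrnpa1 had another region, at its end, in all 4 lists.

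Across the genome, 183 protein-coding genes, 0.846% of them, had a region of this set within 1 kb of an end. Of these, 151 (82.5%) had no untreated peak within 1 kb of either end, and 32 had one elsewhere at an end. Counting all peaks at gene ends, 158 genes (0.730%) had peaks in both phenelzine lists and in neither untreated list, and 118 (0.546%) the reverse. The genes named in the next 2 paragraphs fall outside the naming rule and were picked for their roles after their values were seen, so they stand for no theme.

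The region at Fen1, a flap endonuclease gene, chr19:10204088-10204523, had 5.92 in stimulated and 2.45 in unstimulated cells. That at Dna2, a helicase and nuclease gene, chr10:62946903-62947061, had 2.00 in stimulated and 4.74 in unstimulated cells. The value of Fen1 was higher in the stimulated list and that of Dna2 in the unstimulated list, and neither difference was tested. The region at the mitotic kinase gene Plk1, chr7:122159312-122159449, had 2.63 in stimulated and 2.05 in unstimulated cells. That at Abraxas2, chr7:132859158-132859244, had 3.47 in stimulated and 2.80 in unstimulated cells. The region at Coq2, which encodes an enzyme of coenzyme Q synthesis, chr5:100674247-100674335, had 3.41 in stimulated and 4.16 in unstimulated cells. The mitochondrial ribosomal gene Mrpl16 had 2.04 in stimulated and 4.55 in unstimulated cells at chr19:11770305-11770464. The region at Dmac1, chr4:75278265-75278362, which encodes an assembly factor of respiratory complex I, had 2.25 in stimulated and 4.72 in unstimulated cells. Its nearest untreated peak was the most distant of all regions of the set, 1026283 bp away.

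The region at Elk1, a MAP kinase-regulated ETS factor gene, chrX:20950620-20950769, had 2.12 in stimulated and 3.15 in unstimulated cells. The region at Brd2, which encodes an acetyl-histone reader, chr17:34122593-34122734, had 1.35 in stimulated and 3.26 in unstimulated cells. That at the adaptor gene Shb, chr4:45531240-45531353, had 3.20 in stimulated and 1.34 in unstimulated cells. The values of Elk1 and Brd2 were higher in the unstimulated list and that of Shb in the stimulated list, and these differences were not tested. Inside Itgb2, which encodes the beta chain of the leukocyte integrins, the region chr10:77545012-77545180 had 3.89 in stimulated and 1.56 in unstimulated cells. Inside Cd44, an adhesion receptor gene of activated T cells, the region chr2:102822171-102822287 had 2.21 in stimulated and 1.47 in unstimulated cells.

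Few genes had more than 1 such region. There were 11 genes with 2 regions in the body or within 20 kb. Inside Arid5b, a DNA-binding factor gene, lay chr10:68193059-68193200 and chr10:68248855-68248973. The first had 1.99 in stimulated and 4.00 in unstimulated cells, and the second had 2.89 in stimulated and 3.66 in unstimulated cells. Atxn1 and Lpxn also had 2 each. Prdx1, a peroxiredoxin gene, and Mmachc, a cobalamin gene, shared the same pair. The Prdx1 start had 2.67 in stimulated and 2.48 in unstimulated cells. The histone genes H2ac4, H2bc3, H3c2, H3c3 and H4c2 shared another pair, at H1f2 and H3c1. The region at H1f2, chr13:23738721-23738867, had 1.72 in stimulated and 2.15 in unstimulated cells, and lay 817 bp from an untreated peak. That at H3c1 had 2.31 in stimulated and 1.88 in unstimulated cells and lay 783 bp from one. Reads of histone genes may be split between near-identical copies. The widest span shared by both phenelzine peaks, 348 bp, was at chr1:105925834-105926232, 64158 bp from Zcchc2. The next were 341 bp at a start of Xndc1 and 329 bp at a start of Specc1.

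Most regions were not at the edge of an untreated peak. The nearest untreated peak lay at a median of 23959 bp, and within 500 bp for 20 regions, 1 kb for 32 (8.56%) and 20 kb for 166 (44.4%). For regions of both untreated lists only, the nearest phenelzine peak lay at a median of 26342 bp, within 1 kb for 17 (5.96%) and within 20 kb for 126 (44.2%). Just inside the rule were the Bhlhe40 region, 149 bp from an untreated peak, chr6:73248607-73248691 at Suclg1, 188 bp away, and chr12:72664776-72664933 at Dhrs7, 191 bp away. Just outside it were regions of both phenelzine lists that an untreated peak overlapped by 1, 5 or 6 bp. These were chr19:36688056-36688324 with a stimulated untreated peak of −log10 q 1.45, chr1:149844831-149845135 with an unstimulated untreated peak of 1.34, and chr9:107278646-107279008 with a stimulated untreated peak of 2.25.

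**Figure D4:**
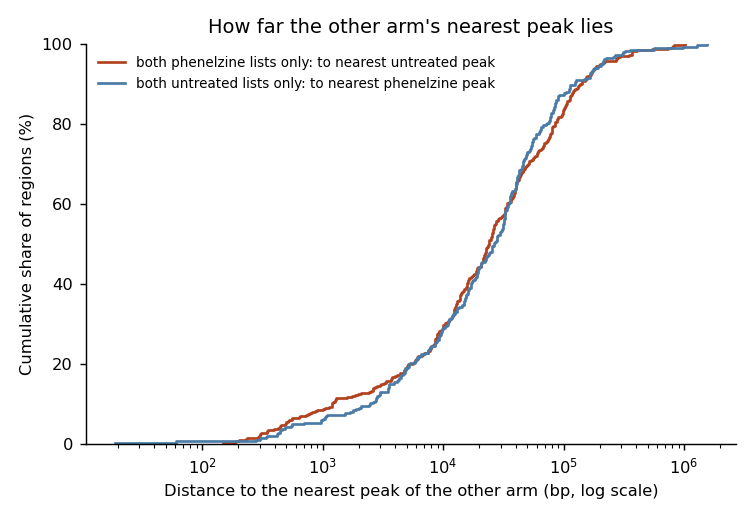
The x axis (log scale) gives the distance (bp) to the nearest peak of the other treatment arm, and the y axis the cumulative share of regions (%). The line for regions of both phenelzine lists only and that for regions of both untreated lists only run close together, with medians of 23959 and 26342 bp.

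Promoter letters were compared over 300-base windows, from 250 bases before to 50 after a start. A region of the set overlapped 145 of the 21045 windows of coding genes, which is 0.689%. Each of 10 motifs was searched by its letters on both strands, with each motif searched on its own, so matches of different motifs could share letters. This comparison of overlapped windows was added after the data were seen. The SP/KLF letters GGGCGG occurred in 51.7% of the 145 windows (43.3 to 60.1), against 70.3% (66.9 to 73.5) of 771 windows overlapped by regions of any other pair of lists and 74.9% of 3473 overlapped by regions of all 4 lists. The share over all windows was 46.7%. The 5 other pairs taken singly had between 63.0% and 75.3%. Of these, the interval of the unstimulated phenelzine and unstimulated untreated pair (63.0%, 48.7 to 75.7) and that of both untreated lists (68.0%, 57.9 to 77.0) overlap the interval of the set. With 1 window per gene the values were 53.3% (44.6 to 61.9), against 70.6% (67.1 to 74.0) for the other pairs. Stx17 and Fuca1 are examples with these letters, and Kdm1a, Snrpf, Nkrf and Prdx1 have stretches without them. A stretch covers only part of its window, so the rest of the window may still hold the letters.

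SP/KLF was the only 1 of the 10 motifs whose interval did not overlap that of the pooled other pairs. Against regions of all 4 lists, the intervals of TATAAA (4.66%, 3.99 to 5.42) and CCAAT (52.7%, 51.1 to 54.4) did not overlap those of the set either. No test of this difference was made, and windows of one gene overlap and are not independent. Base composition moved with it. The median G and C content was 59.7% in the windows of the set, against 62.0% for other pairs and 56.7% over all windows, and the ratio of observed to expected CpG sites was 0.763, against 0.818 for other pairs and 0.574 over all windows. Its part in the difference was not tested.

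The TATA letters TATAAA occurred in 11.7% of the 145 windows (6.98 to 18.1), against 5.45% (3.95 to 7.29) for other pairs and 12.7% over all windows, and the Prdx1 stretch shows one. The ETS letters CCGGAAG occurred in 27.6%, against 24.9% for other pairs, and the CCAAT letters in 34.5%, against 36.2%. Over all windows the ETS letters had 11.7% and the CCAAT letters 38.5%. The CRE letters TGACGTC had 8.97%, against 7.26% for other pairs and 3.88% over all windows. The NRF1 letters GCGCATG had 8.28%, against 6.74% for other pairs. The AP-1 letters TGANTCA, where N is any base, occurred in 1.38%, against 3.24% for other pairs and 7.04% over all windows. The YY1 letters AAGATGG had 6.90%, against 9.34%, the E-box CACGTG 10.3%, against 12.7%, and the RUNX letters TGTGGTT 3.45%, against 2.46% for other pairs. For these 9 motifs the intervals of the set and of the pooled other pairs overlapped. Over the 178 windows of genes with a region within 1 kb of an end, whether overlapped or not, SP/KLF had 48.9% and ETS 21.9%.

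**Figure D5:**
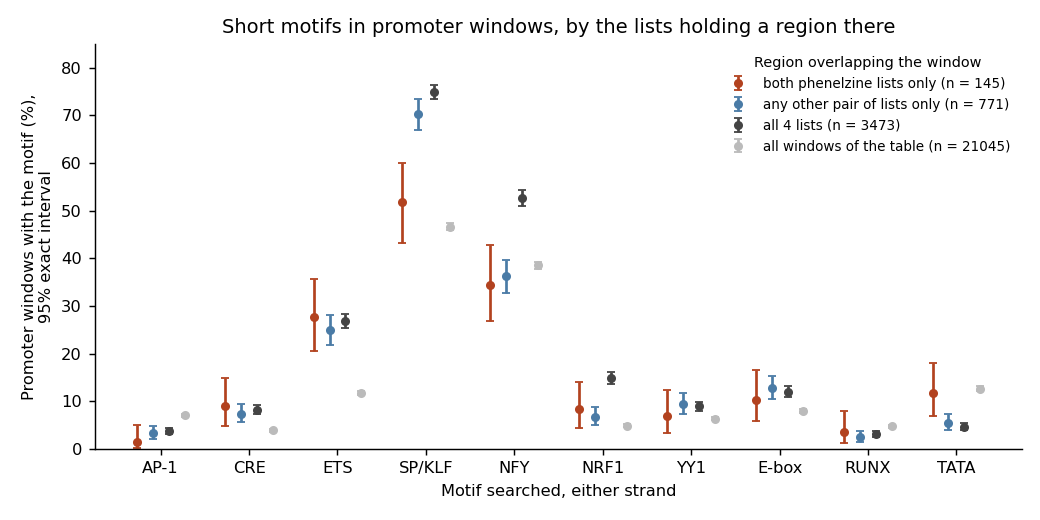
The y axis gives the share of promoter windows (%) with each motif on either strand, with exact 95% intervals, for windows overlapped by regions of both phenelzine lists only, of any other pair of lists and of all 4 lists, and for all windows. SP/KLF stands at 51.7% in the set, against 70.3% for other pairs. For the other 9 motifs the interval of the set overlaps that of the other pairs, though not always those of all 4 lists or of all windows.

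The count of regions depended on the threshold on peaks. With a −log10 q of at least 2 required of peaks in all lists, 242 regions met the rule, of which 128 were among the 374. With at least 3, there were 168, of which 25 were among the 374. When each list was cut to the size of the shortest, 330 regions met the rule and 167 of them were among the 374. Thus fewer than 50% of these regions were selected again with lists of equal size.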

How the data were processed

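The submitters' processing notes name the mouse build mm10 and the tools Bowtie2 2.2.5, Trimmomatic 0.33, HOMER, MACS2 and Picard. Their settings are not stated there. Peaks were deposited per library as broad peak lists. The authors' fold enrichment is a ratio to local background, the deposited p-value and q-value are on the −log10 scale, and the deposited score follows the −log10 q-value. These values belong to a peak's own list. The tag less120 in the peak names is not explained in the files or labels. If it is an upper limit on fragment length, peaks and pileups refer to short fragments.

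Read totals are not in the lists. For each list a background between 0.392 and 0.493 fragments was solved from the modal pair of fold and −log10 p, on the assumption that p is a Poisson tail and that 1 was added to pileup and background in the fold. A pileup of a single peak is only as good as that one background. Region building and the solving of the background were run on simulated data with known answers. Fold and p were simulated with these same formulas, so the run checked the calculation, not whether the formulas hold for the deposited peaks.

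Peaks on chromosomes 1 to 19 and X were merged at an overlap of at least 1 bp. Gene ends came from the RefSeq gene table (21631 protein-coding genes, GRCm38.p6), which does not separate starts, exons or introns, and starts, strands and sequences came from the RefSeq promoter table. Python 3.11.15, pandas 2.3.3, NumPy 2.4.6, SciPy 1.17.1 and matplotlib 3.10.9 were used. Intervals of shares are 95% Clopper-Pearson intervals and reflect counting error alone. The regions, gene lists and motifs were chosen with earlier results of these data known. Apart from the genes that the report says were picked after their values were seen, genes were named by rule: the 12 regions at gene ends and the 8 elsewhere with the highest lower −log10 q, regions within 20 kb of listed genes, genes with 2 regions, the 3 widest shared spans and the 3 regions nearest to each side of the rule. Results for a few of the genes that this rule names are not reported here.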

Additional observations from a re-analysis of the deposited data

How the results depend on the processing

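No paired analysis was possible because the results are shares and counts over peak lists with 1 library per condition, which come from no test between libraries, and no replicate could be left out. Of 49 alternatives over all results, 40 counted as unchanged and 9 moved. A share counted as unchanged when it stayed within the interval of its main value. The number of regions had no error interval in this comparison, so its labels do not rest on counting error. For the number of regions, the values that moved were 242 with a −log10 q of at least 2 in all lists, 168 with at least 3 in all lists, and 25 with at least 3 in the phenelzine lists only. An untreated peak within 500 bp taking a region out left 354, and lists of equal size gave 330. Both counted as unchanged, although only 167 of the 330 were among the 374. The share at gene ends moved to 55.4%, 78.6% and 55.5% with a −log10 q of at least 2, of at least 3 and with lists of equal size. The share of listed genes moved to 8.55% with a window of 50 kb (4.46% of all genes), 2.30% with 1 kb (1.34% of all genes) and 2.96% with a −log10 q of at least 2. No motif share moved, but the motif alternatives only changed which promoter windows of the same 374 regions were counted. Motif shares were not computed again for the stricter thresholds or for lists of equal size. Stricter thresholds remove untreated peaks as well as phenelzine peaks, so other regions enter the set. Motifs were searched in promoter windows, so for regions only in the stretches that lie within one. The lists hold about 5 fragments at a typical weak peak, which limits every presence and absence given above.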
